A study of Mus musculus with 6 samples.

Results

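The 58 mouse genes that encode subunits of ionotropic neurotransmitter receptors were examined among the 55471 genes of an RNA-seq count table. They were chosen by gene name alone, with no measured value used: the glutamate receptor genes Gria, Grik, Grin and Grid, the GABA-A receptor genes Gabr, the glycine receptor genes Glra1 to Glra4 and Glrb, and the nicotinic acetylcholine receptor genes Chrn. All 58 are annotated as protein-coding in GRCm38. At least 1 read was counted for 54 of them, and 37 were expressed highly enough to be tested between genotypes. The tissue was the rostral tip of the telencephalic primordium, the early forebrain, of E11.5 embryos. It came from 3 control and 3 Rx-Dicer samples, and the comparison asks which transcripts differ when Dicer is deleted early in this tissue.

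Control samples carried floxed Dicer alleles without Cre (DicerF/F, titled wt and labelled WT), and Rx-Dicer samples carried the same floxed alleles with Rx3-Cre (RxCre-Dicer F/F). Rx3-Cre mice were kept in a CD1 background and floxed Dicer mice in C57BL/6. The Cre is driven by regulatory sequence of Rax, and by the study's description its recombination at this stage is strongest in the rostral and ventral telencephalon and low in the neocortex, so the dissected piece can hold cells that keep Dicer. Whether each library came from 1 embryo or from several is not given in the labels, so p-values measure only the spread between these 6 libraries.

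Ionotropic receptors are ion channels that open when a transmitter binds. Glutamate receptors are tetramers that pass cations, and fall into AMPA, kainate, NMDA and delta families. GABA-A, glycine and nicotinic acetylcholine receptors are pentamers of related subunits, GABA-A and glycine receptors passing chloride and nicotinic receptors passing cations. In the early telencephalon synapses are few, and many of these receptors are known to be present on progenitors and newly born neurons before synapses form. Dicer cuts precursor hairpins into mature miRNAs, which guide the silencing of mRNAs mainly through short matches in their 3′ UTRs.

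Libraries held 34471501 to 44614586 gene counts in control and 40006887 to 48373468 in Rx-Dicer samples, so that 3 reads corresponded to 0.0620 to 0.0870 CPM, the share of a library's counts. The transcript of Dicer1 was counted at 6355, 7070 and 6270 normalised reads in control samples and at 4777, 7002 and 4644 in Rx-Dicer samples. Rx-Dicer replicate 2 lay at the control level, and the genotypes overlapped (log2 fold change -0.26, DESeq2 adjusted p = 0.567). These counts cover the whole gene, so loss of the floxed part alone was not measured. By in situ hybridisation with a probe for part of the gene, the study reports substantially less Dicer transcript in the rostral telencephalon of mutants at a later stage. Its small RNA-seq, at the same stage as here, gave lower levels of a limited number of mature miRNAs, most of them of the let-7 family. The study's report of less miR-9 in the mutants rests on in situ hybridisation at later stages. Emx2, a transcription factor of telencephalic progenitors, was present in all 6 libraries at 4997 to 9840 normalised reads. Markers of newly born neurons summed to 1368 to 1686 TPM, a level corrected for transcript length and library total, in control and 1070 to 1657 in Rx-Dicer samples. Of these 12 markers, 2 were called higher in Rx-Dicer, the neurofilament genes Nefl and Nefm. The list as a whole did not rise, since 7 of the 12 log2 fold changes were below 0, with a median of -0.157. At an unadjusted DESeq2 p under 0.05, 2 were higher and 3 lower. Markers of progenitors summed to 2712 to 3270 and 2431 to 2862 TPM, with 2 of 10 called lower, Pax6 and Fabp7. Of the 10 log2 fold changes of progenitor markers, 5 were above 0. Among these markers 0 were higher and 3 lower at an unadjusted DESeq2 p under 0.05. Erythroid transcripts took 39060 to 86220 TPM in control and 33490 to 78290 in Rx-Dicer samples and moved all per-length levels of a library together. Microglial markers summed to 52.5 to 66.7 and 60.3 to 215 TPM, with 2 of 10 called higher, Csf1r and Cx3cr1. All 10 of their log2 fold changes were above 0, with a median of 1.06, but the genotypes overlapped for each marker. Of these 10, 8 were higher and 0 lower at an unadjusted DESeq2 p under 0.05 (7 passed by edgeR). Head mesenchyme and endothelial markers had 0 of 10 and 0 of 8 called. Hypothalamic and optic markers had 8 of 10 tested, with 3 called higher (Six3, Vax1, Otp) and 1 lower (Pomc). The part of these differences in the receptor values was not tested.

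Because mature miRNAs are the product of Dicer, the 3′ UTRs of the members were searched for the words that pair with let-7 and miR-9, abundant miRNAs of the developing brain. The mature sequences are given from RefSeq, 5′ to 3′, with the seed (bases 2 to 8) in capitals. The let-7a seed is shared by 11 mature miRNAs of the table.
mmu-let-7a-5p: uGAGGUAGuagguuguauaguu
mmu-miR-9-5p: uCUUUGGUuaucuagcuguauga
The word searched on the transcript strand was the reverse complement of the seed followed by A, CTACCTCA for let-7 and ACCAAAGA for miR-9. The miR-9 word was held by the 3′ UTRs of 3 members. These sites are shown with their neighbouring bases, since they are the members' only matches to that word. The word is in capitals and each line reads along the transcript.
Grik2, miR-9 word: tccctgggaacACCAAAGAaacacacataa
Grik3, miR-9 word: ctggaagattaACCAAAGAcccaacacaga
Grin2a, miR-9 word: taaagcttcaaACCAAAGAttttttaaaaa
In GRCm38 the words lie in annotated 3′ UTR exons at chr10:49097730-49097737 (minus strand) in Grik2, chr4:125709296-125709303 (plus) in Grik3 and chr16:9572451-9572458 (minus) in Grin2a. Among tested members, 1 of 37 (2.70%) held the let-7 word and 2 of 37 (5.41%) the miR-9 word, against 568 (4.04%) and 711 (5.06%) of the 14054 protein-coding genes tested. The members' longest 3′ UTR had a median of 2264 bases, and that of the coding genes 1217. None of the 37 tested members was called, with or without a word, so the calls cannot tell the 2 kinds apart. The log2 fold change was -0.03 in Grik2 and 0.41 in Grik3, with DESeq2 adjusted p of 0.983 and 0.960, and Grin2a was too low to test. A match of letters is a description and does not show that a miRNA binds there.

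Expression of the family was dominated by a single kainate receptor gene. Grik5, whose product is a high-affinity kainate subunit that works only together with other kainate subunits, reached 42.1, 45.5 and 46.5 TPM in control samples and 44.9, 47.5 and 35.8 TPM in Rx-Dicer samples, and made up 35.7% of the summed TPM of all members. Every Grik5 value exceeded the highest value of any other member, 12.6 TPM for Gabrp in control replicate 1. Among the next highest mean levels over the 6 libraries were those of Chrna3 (7.995 TPM), Chrna4 (6.02), Chrnb2 (5.84), Gabra3 (5.76) and Glrb (5.47). These genes did not differ beyond their spread, since Chrna3 alone ran from 4.58 to 11.54 TPM and Chrna4 from 3.14 to 11.8. Per length and averaged over all 6 libraries, the leading genes of their families were Gria2 for AMPA, Grik5 for kainate, Grin2d for NMDA, Grid1 for delta, Gabra3 for GABA-A, Glrb for glycine, Chrna3 for neuronal nicotinic and Chrnb1 for muscle nicotinic receptors. Within the controls alone 2 of these leaders changed, with Gabrp (6.79 TPM) above Gabra3 (5.93) and Grin1 (0.489) above Grin2d (0.422). Without the correction for length, 6 of the 8 families kept the same leader, and Chrnb2 led the neuronal nicotinic family.

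**Figure D1:**
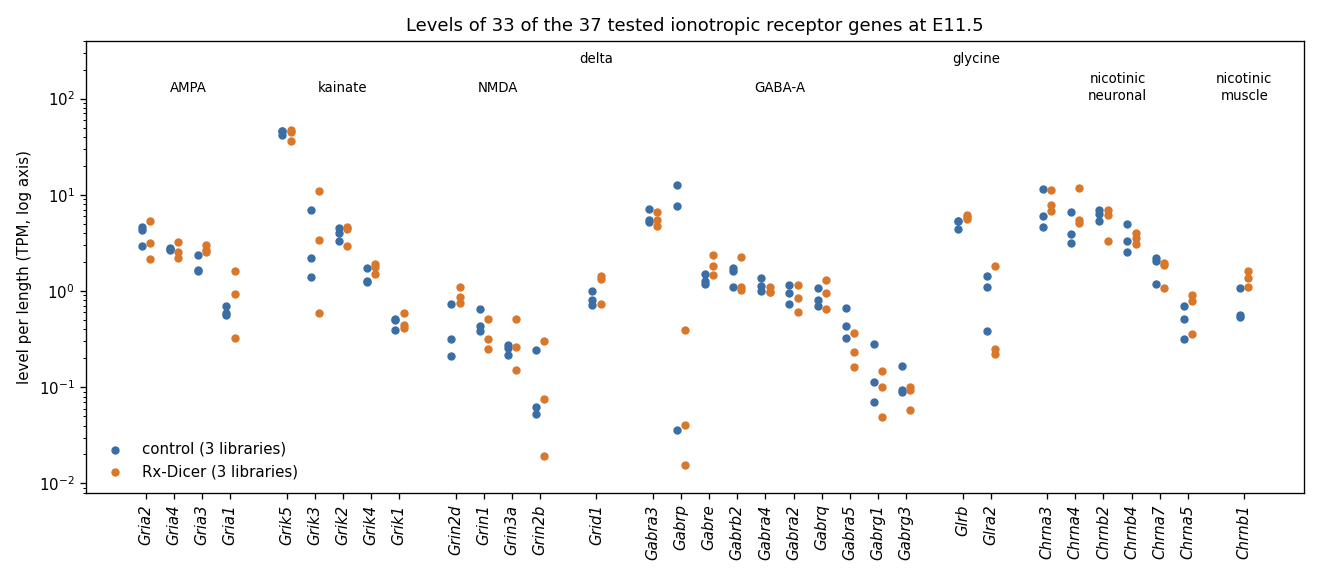
Level per length (TPM, log axis) of each of 33 of the 37 tested members in the 3 control (blue) and 3 Rx-Dicer (orange) libraries, grouped by family and ordered by mean level within it. Grik5 stands above all other members in every library, Gabrp spans from 0.0156 to 12.6 TPM, and most other members overlap between genotypes.

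None of the 37 tested members was called different between genotypes by DESeq2, where a call needed an adjusted p under 0.05 and a log2 fold change beyond 0.32 in either direction. By the same rule 2.93% of all 17128 genes tested were called (1.75% higher and 1.18% lower in Rx-Dicer). The stricter edgeR quasi-likelihood test also called 0, of 39 members that passed its filter, against 0.0446% of all genes. At an unadjusted DESeq2 p under 0.05 there were 5 members, 4 with a higher and 1 with a lower mean in Rx-Dicer, where 13.1% of all genes tested passed (6.96% higher, 6.11% lower). edgeR also gave 5, where 12.9% of its genes passed. Rx-Dicer values lay wholly above the controls in 4 members, Gria3, Grin2d, Gabre and Chrnb1, where 8.55% of all genes tested did so. They lay wholly below in 0 members, where 10.7% of all genes did so. Of the 37 log2 fold changes 21 were below 0, where 50.1% of all genes were, and the median was -0.05 beside -0.00087 over all genes tested. In this bulk tissue, fewer cells of a type and less RNA per cell cannot be told apart.

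The 4 AMPA receptor subunits, which carry most fast excitatory transmission in the mature brain, were all tested and 0 were called. Gria3 was counted at 387, 263 and 257 normalised reads in control samples and at 460, 390 and 452 in Rx-Dicer samples. The Rx-Dicer group lay above the control group, but control replicate 1 and Rx-Dicer replicate 2 nearly met. The log2 fold change of Gria3 was 0.52 ± 0.20 (SE, n = 3 per genotype, unadjusted p = 0.0105), with an adjusted p of 0.165 by DESeq2 and 0.323 by edgeR. Without control replicate 1 it was 0.74 (DESeq2 adjusted p = 0.00261), which passes the threshold. Gria2, whose edited subunit keeps AMPA receptors nearly impermeable to calcium, had 1102, 1190 and 719 reads in control and 1286, 731 and 596 in Rx-Dicer samples. The genotypes of Gria2 overlapped, with a log2 fold change of -0.20 ± 0.27 that turned to 0.0093 without Rx-Dicer replicate 3. Gria4 was among the steadiest members, at 270 to 292 reads in control and 247 to 300 in Rx-Dicer samples. Gria1 varied 4.37-fold among the 3 Rx-Dicer libraries (154, 82.5 and 35.2 reads) around a narrow control range of 56.0 to 66.7.

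The 5 kainate receptor subunits, presynaptic and postsynaptic modulators with a slow current, were all tested and 0 were called. Grik5 had 3612, 3907 and 3772 normalised reads in control samples and 3618, 3621 and 3338 in Rx-Dicer samples. The genotypes overlapped, and the 95% interval of the ratio of Rx-Dicer to control was 0.808 to 1.09. Its log2 fold change was -0.09 ± 0.11 (DESeq2 adjusted p = 0.848), the smallest standard error among the members. Grik2, a subunit that forms channels with Grik5, was also steady at 690 to 989 reads in control and 695 to 946 in Rx-Dicer samples. Grik3, which forms channels of low glutamate affinity, was the opposite: 210, 328 and 989 reads in control and 473, 1462 and 95.1 in Rx-Dicer samples. The highest and lowest Grik3 values lay within the Rx-Dicer group and were 15.4-fold apart, and the log2 fold change was 0.41 with an interval from -1.79 to 2.62. Grik4 and Grik1 had log2 fold changes of 0.25 and 0.01.

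The NMDA receptor genes, whose channels need glutamate together with glycine or D-serine and pass calcium, were expressed at a low level per length, and 4 of 7 could be tested. Grin2d, a subunit typical of embryonic and interneuron receptors, had the highest mean over all 6 libraries at 0.662 TPM, and the obligatory subunit gene Grin1 stood at 0.426 TPM. In controls the means were 0.422 TPM for Grin2d and 0.489 for Grin1, and in Rx-Dicer samples 0.902 and 0.362. Grin2d was counted at 81.8, 23.4 and 32.9 normalised reads in control samples and at 113, 85.6 and 89.4 in Rx-Dicer samples. All Rx-Dicer values exceeded all controls, but control replicate 1 was close to the Rx-Dicer values and far from the other two controls. The log2 fold change of Grin2d was 1.07 ± 0.44 (unadjusted p = 0.0139), the highest among the tested members, with an adjusted p of 0.194 by DESeq2 and 0.369 by edgeR. Without control replicate 1 it was 1.77, with a DESeq2 adjusted p of 0.000423, which passes the threshold. Grin1 lay at 62.1 to 104 reads in control and 35.7 to 78.0 in Rx-Dicer samples. Grin2b, the main partner of Grin1 in the fetal brain, had 100, 25.5 and 20.7 reads in control and 118, 27.5 and 8.56 in Rx-Dicer samples. Replicate 1 of either genotype was far above the others for Grin2b. Grin3a had 43.8 to 56.2 and 33.3 to 92.7 reads. Grin2a, Grin2c and Grin3b had at most 13 reads in any library.

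Both delta receptor genes, whose products act more as synaptic adhesion partners than as channels, were tested and 0 were called. Grid1 had 70.8, 79.4 and 93.0 normalised reads in control and 132, 117 and 78.0 in Rx-Dicer samples. Rx-Dicer replicate 3 lay within the control range while the other two lay above it, and the log2 fold change was 0.43 ± 0.30 (DESeq2 adjusted p = 0.637).

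**Figure D2:**
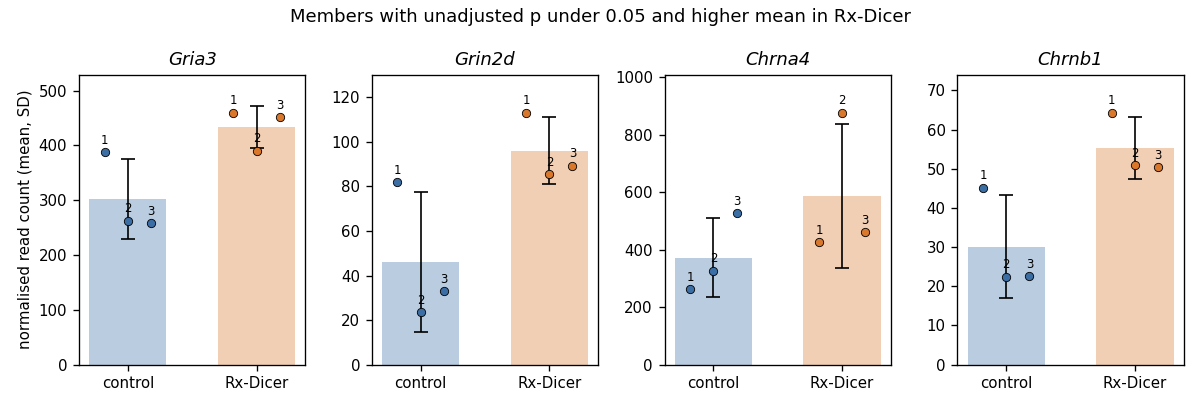
Normalised read counts of the 4 members with an unadjusted DESeq2 p under 0.05 and a higher mean in Rx-Dicer. Bars are means, error bars SD (n = 3), and points are libraries with their replicate numbers. Control replicate 1 is the highest control for Gria3, Grin2d and Chrnb1, and Rx-Dicer replicate 2 is the highest value for Chrna4.

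The GABA-A receptor genes were the most numerous, with 19 members, of which 13 were tested and 0 called. Log2 fold changes were below 0 in 11 of the 13, under each of the 5 scalings and tests compared, but 1 of the 13 had an unadjusted p under 0.05. Gabra3, the alpha subunit with the highest level per length, had 458, 360 and 322 normalised reads in control and 333, 380 and 337 in Rx-Dicer samples. Its genotypes overlapped, and the 95% interval of the ratio was 0.713 to 1.19 (log2 fold change -0.12 ± 0.19, DESeq2 adjusted p = 0.909). Without control replicate 1 the log2 fold change was 0.036. Gabra2, Gabra4 and Gabrb2 had log2 fold changes of -0.17, -0.21 and -0.06. Of the gamma subunits, which place the receptor at synapses and form the benzodiazepine site, Gabrg1 stood at 0.127 and Gabrg3 at 0.1001 TPM. Gabra5, a subunit of extrasynaptic receptors, had 33.0, 21.4 and 15.03 reads in control and 17.2, 7.13 and 12.4 in Rx-Dicer samples (log2 fold change -0.90 ± 0.64), and Rx-Dicer replicate 1 lay within the control range. Gabre, the epsilon subunit gene, was chosen after its values were seen, because its groups did not overlap. It had 98.9, 117 and 88.3 reads in control and 134, 167 and 126 in Rx-Dicer samples, with a log2 fold change of 0.49 ± 0.26 and a DESeq2 adjusted p of 0.408. The theta subunit gene Gabrq lay at 62.1 to 89.2 and 54.0 to 102 reads.

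Gabrp, the pi subunit gene, which is known mainly from epithelia and not from brain, had the most extreme difference of all members. It was counted at 706, 2.04 and 410 normalised reads in control samples and at 20.6, 2.04 and 0.951 in Rx-Dicer samples. Control replicates 1 and 3 were high, while control replicate 2 matched Rx-Dicer replicate 2, so the genotypes overlapped. The log2 fold change was -5.56 ± 1.87 (unadjusted p = 0.00290), with an adjusted p of 0.0792 by DESeq2 and 0.230 by edgeR. Without control replicate 2 it was -6.14 (DESeq2 adjusted p = 0.00520) and without Rx-Dicer replicate 1 it was -7.97 (adjusted p = 0.00953), so either library decided whether Gabrp was called. Of the epithelial markers examined, Trp63 and Krt5, chosen after their values were seen, were high in the same libraries. Trp63, the transcription factor of stratified epithelia, had 318, 6.11 and 144 reads in control and 24.9, 4.08 and 1.90 in Rx-Dicer samples. Krt5, a keratin of basal epithelial cells, had 131, 5.09 and 196 reads in control and 18.01, 8.15 and 3.80 in Rx-Dicer samples. Of 10 markers of surface and olfactory epithelium 9 were tested and 0 called, none was at 0 in all libraries, and 3 of the 9 had a log2 fold change above 0. Their summed level was 84.3, 24.4 and 64.8 TPM in control and 71.1, 39.3 and 39.8 TPM in Rx-Dicer samples. Unlike Gabrp, this sum was higher in Rx-Dicer replicate 1 than in control replicate 3. The part of epithelial tissue in the Gabrp values was not tested.

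Of the 5 glycine receptor genes 2 were tested and 0 called. Glrb, the beta subunit that anchors glycine receptors to gephyrin, was counted at 412, 337 and 393 normalised reads in control samples and at 449, 407 and 475 in Rx-Dicer samples. Only Rx-Dicer replicate 2 fell inside the control range, and the log2 fold change was 0.22 ± 0.17 (DESeq2 adjusted p = 0.667), with a 95% interval of the ratio of 0.931 to 1.46. Glra2, the fetal alpha subunit, had 75.7, 57.0 and 18.8 reads in control and 90.1, 10.2 and 14.3 in Rx-Dicer samples. The range was 4.03-fold among controls and 8.84-fold among Rx-Dicer samples, and the genotypes overlapped. Glra3 had 3 to 27 raw reads per library and Glra1 had 2 reads in a single library.

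Of the 11 neuronal nicotinic receptor genes 6 were tested and 0 called. Chrna3, an alpha subunit best known from ganglia and the habenula, had 1009, 525 and 379 normalised reads in control and 915, 531 and 746 in Rx-Dicer samples. The genotypes overlapped, and the log2 fold change of 0.20 ± 0.30 turned to -0.067 without control replicate 3. Chrna4, which with Chrnb2 forms the main high-affinity nicotine site of the brain, had 261, 327 and 526 reads in control and 427, 877 and 460 in Rx-Dicer samples. Control replicate 3 was above 2 of the 3 Rx-Dicer values. The log2 fold change of Chrna4 was 0.66 ± 0.30 (unadjusted p = 0.0277), with an adjusted p of 0.284 by DESeq2 and 0.466 by edgeR. It was 0.26 without Rx-Dicer replicate 2 (DESeq2 adjusted p = 0.874) and 1.00 without control replicate 3 (adjusted p = 0.0866), and over all 6 fits without a library it was not called. Chrnb2 itself had 870, 740 and 921 reads in control and 811, 856 and 500.0 in Rx-Dicer samples, with a log2 fold change of -0.22 ± 0.21. Chrna7, the subunit of homomeric calcium-permeable receptors, lay at 87.9 to 166 and 87.5 to 130 reads. Chrnb4 and Chrna5, subunits that assemble with Chrna3, had log2 fold changes of -0.05 and 0.37.

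Of the 5 muscle nicotinic receptor genes only Chrnb1, the beta subunit of the receptor at the neuromuscular junction, could be tested. It was counted at 45.2, 22.4 and 22.6 normalised reads in control samples and at 64.3, 50.9 and 50.4 in Rx-Dicer samples. All Rx-Dicer values were above all controls, with control replicate 1 the nearest to them. The log2 fold change of Chrnb1 was 0.89 ± 0.43 (unadjusted p = 0.0380), with an adjusted p of 0.331 by DESeq2 and 0.340 by edgeR. Its partners in muscle were nearly unread, with at most 9 raw reads of Chrna1 and at most 3 of Chrnd, Chrne and Chrng in any library. Skeletal muscle markers summed to 3.81 to 5.49 TPM in control and 2.99 to 5.51 TPM in Rx-Dicer samples, and 3 of 10 could be tested with 0 called. The muscle determination genes Myf5 and Myf6 were at 0 in 5 of the 6 libraries each, and Myod1 in 3.

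Summed per length, the members of each family gave levels that overlapped between genotypes, with 1 exception. All 58 members together reached 136, 110 and 124 TPM in control samples and 131, 141 and 93.2 TPM in Rx-Dicer samples. Kainate receptor genes gave 50.1 to 58.6 TPM in control and 41.2 to 65.2 in Rx-Dicer samples, neuronal nicotinic genes 21.1 to 27.8 and 20.8 to 31.9, and GABA-A genes 17.8 to 36.8 and 14.6 to 22.5. Gabrp made up 12.6 of the 36.8 TPM of GABA-A genes in control replicate 1 and 7.72 of the 25.3 in control replicate 3. In control replicate 2 Gabrp was at 0.0363 TPM, and in Rx-Dicer samples at most at 0.391. AMPA genes gave 8.03 to 10.01 and 7.21 to 12.4 TPM, and glycine receptor genes 5.55 to 6.80 and 5.93 to 8.09. The lowest sums belonged to NMDA genes, with 1.09 to 2.20 and 1.43 to 2.53 TPM, to delta genes, with 0.937 to 1.09 and 0.890 to 1.55 TPM, and to muscle nicotinic genes, with 0.576 to 1.16 and 1.18 to 1.79 TPM. Muscle nicotinic sums, almost all of them Chrnb1, were the only ones whose genotypes did not overlap.

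How much the data could have shown was read from the intervals. The 95% interval of the ratio stayed within 2-fold in either direction for 20 of the 37 tested members and within 1.5-fold for 6, which were Gria4, Grik2, Grik5, Gabra3, Glrb and Chrnb4. For these 6 a change beyond 1.5-fold lies outside the interval. For the other 17 the interval reached past 2-fold in at least 1 direction. Members had a median standard error of 0.31 on the log2 scale, beside 0.17 over all genes tested. The 3 controls differed more than 2-fold among themselves in 14 members and the 3 Rx-Dicer libraries in 13. The sign of the log2 fold change held in all 6 fits that left out a library for 18 of the 37.

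**Figure D3:**
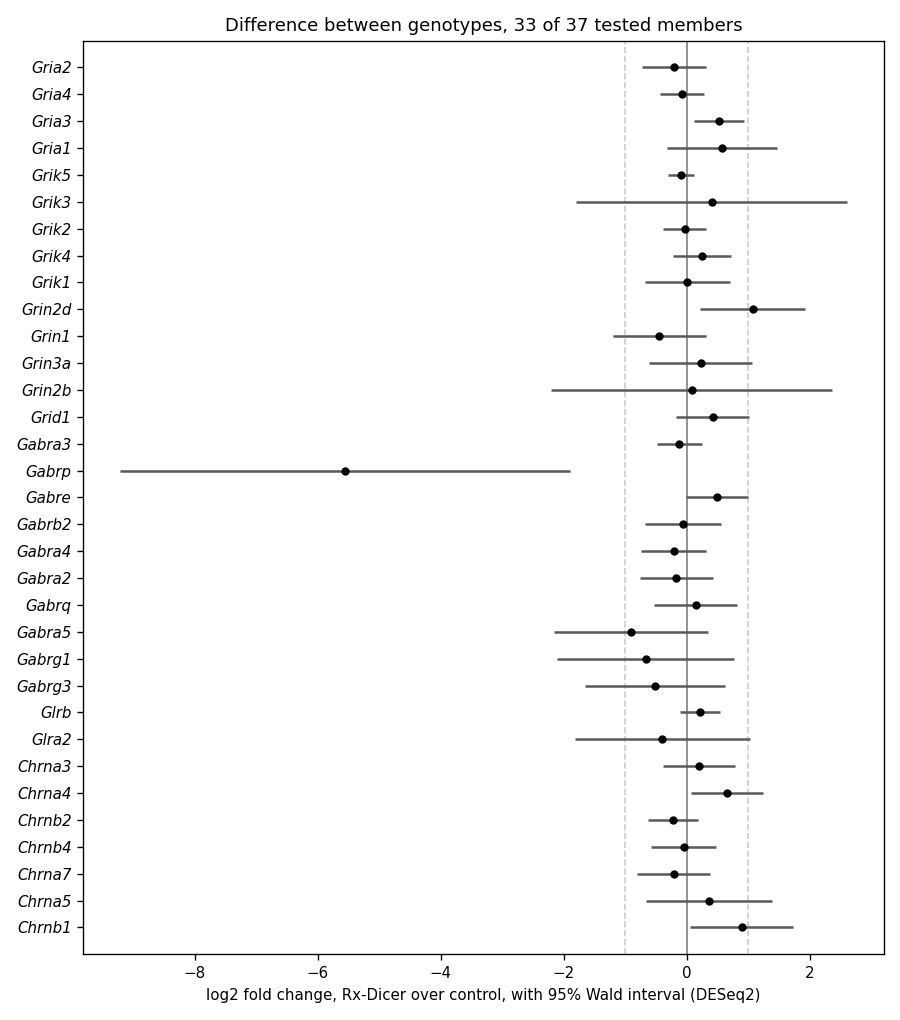
Log2 fold change of Rx-Dicer over control with its 95% Wald interval (DESeq2) for 33 of the 37 tested members, ordered by family and level. Dashed lines mark 2-fold in either direction. The intervals of 5 members leave out 0, namely Gria3, Grin2d, Gabrp, Chrna4 and Chrnb1, and those of Grik3, Grin2b and Gabrp are the widest.

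Several members differed more between libraries of a genotype than between genotypes, and the libraries in which they were high were also those of their genotype in which some markers of a cell type were high. These genes were chosen after their values were seen. Grik3 and Chrna4 were highest in control replicate 3 among controls and in Rx-Dicer replicate 2 among Rx-Dicer samples. The GABA synthesis genes were highest in the same library of each genotype, with 101, 194 and 422 reads of Gad1 in control and 294, 817 and 98.9 in Rx-Dicer samples, and 214, 383 and 895 of Gad2 in control and 922, 1663 and 250.0 in Rx-Dicer samples. Dlx2, a transcription factor of the subpallium, where GABAergic neurons are born, had 1048, 1336 and 3044 reads in control and 771, 4079 and 717 in Rx-Dicer samples. The 10 subpallial markers summed to 168, 183 and 317 TPM in control and 142, 468 and 141 TPM in Rx-Dicer samples, with 2 called higher, Lhx6 and Lhx8, and none at 0 in all libraries. Grin2b, Glra2 and Chrna3 were highest in replicate 1 of either genotype. So was Trp73, a factor of Cajal-Retzius neurons, the first-born neurons of the cortical surface, with 1497, 920 and 602 reads in control and 2226, 1005 and 1307 in Rx-Dicer samples. The 8 Cajal-Retzius and preplate markers summed to 297, 175 and 166 TPM in control and 272, 161 and 169 TPM in Rx-Dicer samples, with 0 called. The part of regional or cellular content in these receptor values was not tested.

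**Figure D4:**
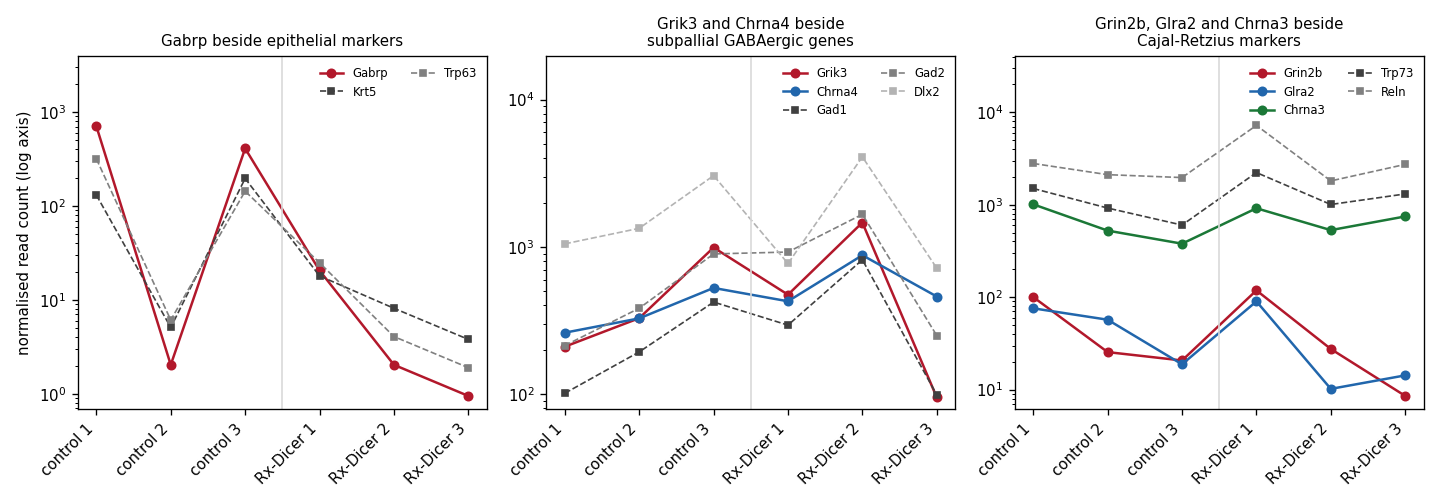
Normalised read counts (log axis) of receptor genes (solid coloured lines) beside marker genes (dashed grey lines) in each of the 6 libraries, in 3 panels. Gabrp, Krt5 and Trp63 are high in control replicates 1 and 3. Grik3, Chrna4, Gad1, Gad2 and Dlx2 peak in control replicate 3 and Rx-Dicer replicate 2. Grin2b, Glra2, Chrna3 and Trp73 are high in replicate 1 of either genotype, and lines join libraries only to guide the eye. Reln is also drawn beside them, and its values are not given in the text.

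Many members lie side by side in the genome, and neighbours differed widely in level. On GRCm38 chromosome 5 (70751047 to 72149037), Gabra2 and Gabra4 had a mean of 0.946 and 1.17 TPM in control samples, beside 0.155 for Gabrg1 and 0.0478 for Gabrb1. Gabra4 and Gabrb1 overlap on opposite strands, and counting used the strand. On chromosome X (72255999 to 72842602), Gabra3 was at 5.93 TPM in the controls, beside 1.31 for Gabre and 0.853 for Gabrq. On chromosome 9 (54980880 to 55048779), Chrna3 and Chrnb4 were at 7.38 and 3.60 TPM in the controls and Chrna5, whose product joins them in a pentamer, at 0.512.

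The 21 members that were not tested were Grin2a, Grin2c, Grin3b, Gabra6, Gabrb1, Gabrd, Gabrr1, Gabrr2, Gabrr3, Glra1, Glra3, Glra4, Chrna1, Chrna2, Chrna6, Chrna9, Chrna10, Chrnb3, Chrnd, Chrne and Chrng. They had at most 27 raw reads in any library, and were left out by a filter on the mean over all 6 libraries. Among them, 4 had no read in any library, Gabra6, Glra4, Chrna2 and Chrna6, which at this depth allows up to 0.0620 to 0.0870 CPM per library for counting error only. Most are subunits of mature or specialised receptors, such as Gabra6 of cerebellar granule cells, Gabrd of extrasynaptic receptors, Gabrr1 to Gabrr3 of the retina, Chrna9 and Chrna10 of cochlear hair cells and Glra1 of the adult spinal cord.

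The other genes of the transmitter systems gave 0 calls as well, where 2.93% of all 17128 genes tested were called. For the lists of partners, supply genes and metabotropic receptors, counts at an unadjusted p under 0.05 are given. Among all genes 13.1% passed this by DESeq2 and 12.9% by edgeR. Of 28 proteins that assist glutamate receptors 27 were tested, and 1 was higher and 2 lower at an unadjusted DESeq2 p under 0.05 (4 by edgeR). Cnih3, an auxiliary subunit of AMPA receptors, had 235, 213 and 132 normalised reads in control and 112, 86.6 and 116 in Rx-Dicer samples. All controls were above all Rx-Dicer values for Cnih3, with a log2 fold change of -0.88 ± 0.28 and a DESeq2 adjusted p of 0.0561, and it was called when control replicate 3 was left out. All 13 partners of GABA-A and glycine receptors were tested, with 1 higher and 3 lower at unadjusted p (4 by edgeR). Lhfpl4, which anchors GABA-A receptors at synapses, had 2516, 2952 and 2699 reads in control and 1762, 2478 and 1573 in Rx-Dicer samples, wholly below the controls, with a log2 fold change of -0.49 ± 0.18 and an adjusted p of 0.110 by DESeq2, and was called when Rx-Dicer replicate 2 was left out. Of 13 nicotinic partners 11 were tested, with 0 at an unadjusted DESeq2 p under 0.05 and 1 by edgeR.

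Genes for the supply of glutamate summed to 206 to 252 TPM in control and 200 to 262 TPM in Rx-Dicer samples, those for GABA and glycine to 63.9 to 103 and 67.7 to 131 TPM, and those for acetylcholine to 4.29 to 6.74 and 4.77 to 6.85 TPM. Of these, 9 of 10, 10 of 11 and 3 of 5 genes were tested with 0 called, and 0, 1 and 1 had an unadjusted DESeq2 p under 0.05 (0, 0 and 1 by edgeR). Slc6a5, the transporter that defines glycinergic neurons, was at 0 in all libraries, and Chat, the enzyme that makes acetylcholine, had at most 3.43 normalised reads. Of 15 metabotropic receptors for the same transmitters 10 were tested with 0 called and 1 at an unadjusted p under 0.05 by either tool. Grm7, a presynaptic glutamate receptor, had 13.4, 11.2 and 10.3 reads in control and 53.2, 13.2 and 31.4 in Rx-Dicer samples, with a log2 fold change of 1.49 ± 0.64 and a DESeq2 adjusted p of 0.230. For Grm7, Rx-Dicer replicate 2 lay within the control range and the other Rx-Dicer libraries above it, and the gene was called when Rx-Dicer replicate 2 was left out.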

How the data were processed

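RNA-seq libraries of the rostral telencephalic primordium of E11.5 embryos were compared between 3 controls and 3 Rx-Dicer samples. The authors deposited raw counts of reads on each gene: by the study's methods and the submitters' notes, the authors trimmed reads with Trim Galore 0.6.5, aligned them to GRCm38.p6 with HISAT2 and counted Ensembl genes with HTSeq 0.12.4 (union mode, reverse strand). The 2 files of each sample were summed as runs of 1 library, since chi-square per degree of freedom was 1.13 to 1.52 between runs and 22.5 to 32.6 between samples. Rows that named no gene (24.9 to 31.0% of reads) were left out. Groups came from the sample titles.

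Genotypes were compared across all genes with the DESeq2 1.42.0 Wald test (R 4.3.3), with size factors by the median of ratios, independent filtering, Benjamini-Hochberg adjustment and no shrinkage of fold changes. A call was an adjusted p under 0.05 with over 1.25-fold. Intervals were 1.96 SE. edgeR 4.0.16 (quasi-likelihood, TMM, at least 10 counts in 3 samples) was the first alternative. TPM used exon-union lengths of GENCODE M21, matched for 55230 of 55471 identifiers. In 3 simulated draws of 30930 genes with 200 changed 2-fold, for this comparison, DESeq2 recovered 83.5% with 22.7% of calls wrong, and edgeR 71.5% with 8.50% wrong.

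The members, gene lists and marker lists were chosen with earlier results of these data known. Members given with full values were those called or with an unadjusted p under 0.05, the member with the highest TPM of each family, and the extremes of the log2 fold change. In each other list, called genes were named. The values of some genes are not reported here, and they stay in the counts. All other genes named were chosen after their values were seen. Alternatives were other scalings, filters and thresholds, each run alone, a gene length and GC correction, a replicate block and fits without each library.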

Additional observations from a re-analysis of the deposited data

How the results depend on the processing

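With DESeq2, 0 members were called, and this also held with edgeR, TMM or total-count scaling, a low-count filter, no independent filtering, a fold minimum of 2, either run alone and the gene length and GC correction. At an adjusted p under 0.1 the count was 1 (Gabrp, lower, 1). Over the fits without 1 library it was 0 to 2, with 0 to 2 higher (Gria3 and Grin2d, without control replicate 1) and 0 to 1 lower (Gabrp, without control replicate 2 or Rx-Dicer replicate 1). Of the transmitter supply, partner and metabotropic genes, 1 was called at an adjusted p under 0.1 (Cnih3), and 0 to 2 without 1 library: Trak2 without control replicate 2, Cacng4 and Cnih3 without control replicate 3, Grm7 and Lhfpl4 without Rx-Dicer replicate 2, and 1 other gene without Rx-Dicer replicate 3. The cause was not tested. Of 11 members followed under 17 alternatives, 3 values changed sign: Chrna3 to -0.067 without control replicate 3 (range without 1 library -0.067 to 0.69), Gabra3 to 0.036 without control replicate 1 (-0.22 to 0.036) and Gria2 to 0.0093 without Rx-Dicer replicate 3 (-0.60 to 0.0093). With the replicate block 0 members were called. The labels do not say whether same-numbered samples share a litter. Correlations of same-numbered samples were 0.189, 0.0372 and -0.143, beside -0.183 to 0.168 for samples of different number, so they were not taken as pairs. With 3 libraries per genotype the 95% interval of 17 members reached past 2-fold, and the 21 members not tested had too few reads for a comparison.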
